A study of Mus musculus with 48 samples.

Results

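The subject is the circadian clock genes of the mouse brain, given by the 10 genes Per1, Per2, Per3, Dbp, Tef, Nr1d1, Nr1d2, Cry1, Cry2 and Clock. They were chosen by symbol, and each was read by 1 probe, the one with the highest mean over the 24 mRNA arrays. All 10 had a probe, out of 19752 genes that a RefSeq transcript named and 55681 probes on the array. The study examined expression in Tg2576 mice, a model of Alzheimer's disease that carries the Swedish mutant of human APP under the hamster prion protein promoter, and in wild-type (WT) mice. All mice were male. The WT mice were C57BL/6J and the Tg2576 mice were labelled with the strain Tg(APPSWE)2576Kha, so genotype and strain entry go together. The 8 groups were WT and Tg2576 cortex at 10 months, WT and Tg2576 cortex at 17 months, and the same 4 for whole brain, with 3 arrays each. The hour of tissue collection is not given in the sources used here and enters no comparison.

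The molecular clock is a feedback loop of transcription. CLOCK and its partner BMAL1, the product of Arntl, bind E-boxes and turn on the Per and Cry genes, whose proteins then repress CLOCK and BMAL1. The same pair turns on Nr1d1 and Nr1d2, which encode the repressors REV-ERB alpha and beta, and Dbp and Tef, which encode PAR bZIP activators that bind D-boxes. In most tissues, brain cortex included, the transcripts of Dbp, Nr1d1 and the Per genes swing widely over the day, whereas Clock swings little. Per1 and Per2 also respond to neuronal activity and hormones.

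The 24 mRNA arrays had 34151 to 41084 probes well above background, and the median correlation of an array with the others of its group was 0.993 to 0.997. The arrays lay on 3 slides. Slide 1 held the 6 cortex arrays of 10 months and replicates 1 and 2 of the 17-month-old WT cortex, and slide 3 held replicates 2 and 3 of the 10-month-old Tg2576 whole brain with the 6 whole brain arrays of 17 months. The neuronal gene Snap25 averaged 6.09 to 6.60 over the groups and the cortical gene Tbr1 3.64 to 4.13, both on the scale used throughout, log2 intensity minus the 75th percentile of the array. Tbr1 did not separate the tissues, with group means of 3.64 to 4.08 in whole brain and 3.91 to 4.13 in cortex. Markers of the olfactory bulb varied widely within groups. The mean level of 9 such markers was -0.97 to 0.94 on the 3 Tg2576 cortex arrays of 10 months and -2.57 to -1.63 on the WT cortex arrays of that age. All 9 were higher in the former group, and all 9 were lower in Tg2576 cortex at 17 than at 10 months (median log2 difference -2.08, 0 passing the test). Their part in the results on Tg2576 cortex was not tested. App was not higher in Tg2576 than in WT cortex, with a log2 difference of -0.02 at both ages, and differed by 0.25 and -0.02 in whole brain at 10 and 17 months (limma adjusted p = 0.431 and 0.905), but its probe was named by the mouse transcript, so this does not check the human transgene.

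Promoter sequences were taken from RefSeq (GRCm38.p6) as the 250 bases before a transcript start, and these are not coordinates of the array probes. They were at hand for 9 of the 10 genes, and for Per2 there was none. Windows of 4 genes are printed, 3 because they hold a clock motif and Dbp because its level separated the ages on all arrays. Capitals mark the E-box CACGTG or the D-box TTANGTAA, searched on both strands, and positions count bases from the transcript start. The first Per1 window (chr11:69098699-69098948, plus strand) holds an E-box at -166, the Cry1 window (chr10:85185055-85185304, minus strand) an E-box at -60 and the Per3 window (chr4:151044666-151044915, minus strand) a D-box at -205 and another at -158. The Dbp window (chr7:45704997-45705246, plus strand) holds none of the motifs.
Per1: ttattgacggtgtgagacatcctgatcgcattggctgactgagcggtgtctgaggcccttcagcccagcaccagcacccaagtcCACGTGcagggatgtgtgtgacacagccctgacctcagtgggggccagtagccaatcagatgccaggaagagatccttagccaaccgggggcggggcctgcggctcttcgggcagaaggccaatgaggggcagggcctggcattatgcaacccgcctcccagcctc
Cry1: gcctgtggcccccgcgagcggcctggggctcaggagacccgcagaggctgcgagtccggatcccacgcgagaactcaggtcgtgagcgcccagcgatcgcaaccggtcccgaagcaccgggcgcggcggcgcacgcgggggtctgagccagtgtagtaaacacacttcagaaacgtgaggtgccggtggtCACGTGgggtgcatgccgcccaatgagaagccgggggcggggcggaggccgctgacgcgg
Per3: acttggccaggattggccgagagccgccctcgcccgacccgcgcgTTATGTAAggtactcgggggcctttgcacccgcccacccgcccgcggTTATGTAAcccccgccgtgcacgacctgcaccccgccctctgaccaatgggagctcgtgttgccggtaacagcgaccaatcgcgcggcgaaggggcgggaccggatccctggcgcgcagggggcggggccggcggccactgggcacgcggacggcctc
Dbp: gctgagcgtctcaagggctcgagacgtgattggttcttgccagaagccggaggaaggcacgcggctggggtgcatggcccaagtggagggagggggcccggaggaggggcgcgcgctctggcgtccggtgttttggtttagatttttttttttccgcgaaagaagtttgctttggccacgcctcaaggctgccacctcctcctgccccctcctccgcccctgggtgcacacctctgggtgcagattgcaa
Of the 32851 windows of this length in the table, 6.02% hold the E-box and 2.06% the D-box. Both windows of Tef also hold an E-box, at -127 and at -138. The second Per1 window (chr11:69099902-69100151, plus strand) and the windows of Nr1d1, Nr1d2, Cry2 and Clock hold neither. The element TAGGTCA, which REV-ERB and ROR proteins bind, stands in 2.23% of all windows and the cAMP response element TGACGTCA in 1.55%, and neither was found in a window of the 9 genes. These are matches of letters in a short window and say nothing about binding.

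All 10 genes were well above background on all 24 arrays, and no probe was saturated. Their spread within groups was ordinary. The pooled within-group SD ran from 0.087 for Dbp, which is lower than that of all but 18.8% of the 32188 probes well above background on all arrays, to 0.198 for Per3, at the 77.8th percentile. The median over those probes was 0.133. The groups differed far more for some genes than for others. The range of the 8 group means was 1.23 for Nr1d1, at the 97.5th percentile of those probes, 0.86 for Per3 and 0.83 for Dbp, and only 0.40 for Tef, at the 38.7th percentile. The plot of levels by array shows the 10 genes side by side.

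**Figure D1:**
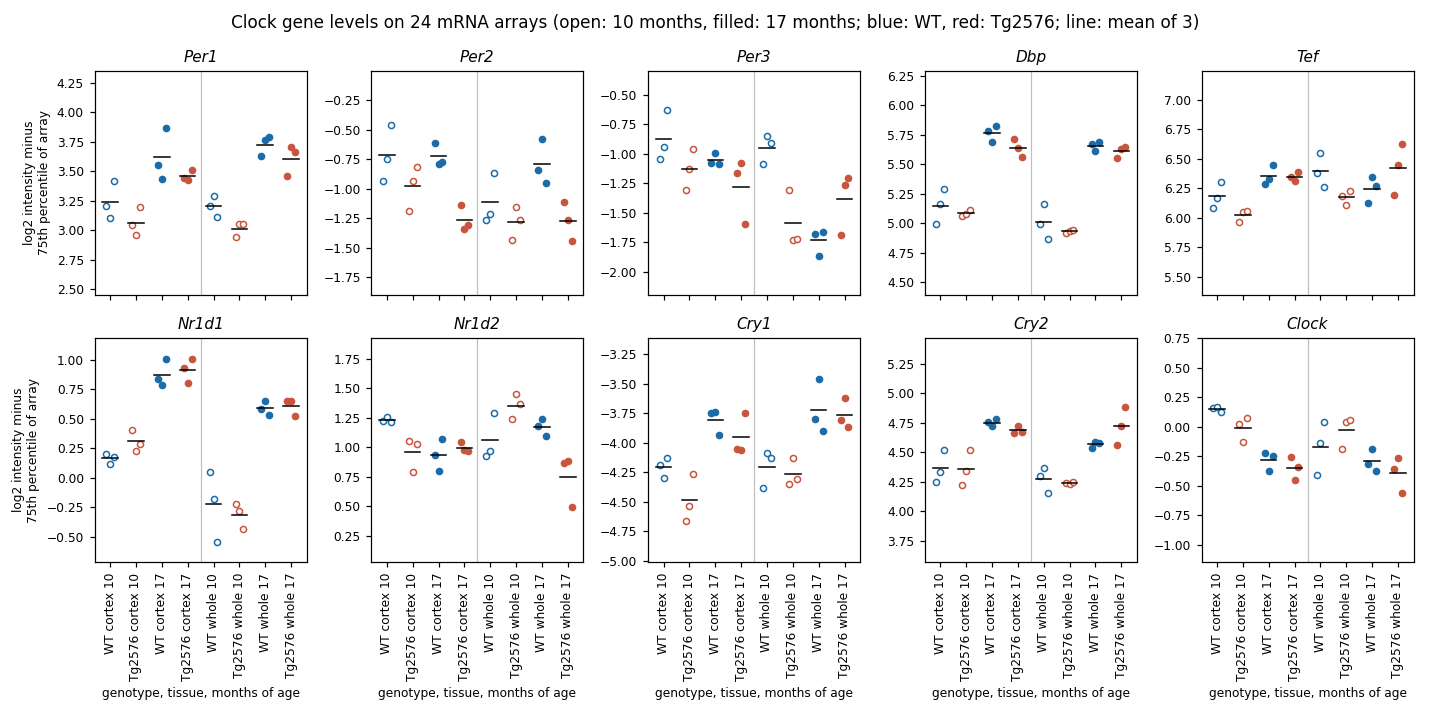
Level of each of the 10 clock genes on the 24 mRNA arrays (y axis, log2 intensity minus the 75th percentile of the array) in the 8 groups (x axis), with 1 point per array and a line at the mean of 3; WT is blue, Tg2576 red, 10 months open and 17 months filled. All 12 filled points of Dbp lie at or above 5.55 and all 12 open points at or below 5.29, whereas the filled and open points of Per2 overlap.

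The clearest pattern was age. Dbp, Nr1d1, Per1, Cry1 and Cry2 were higher at 17 than at 10 months in both tissues and both genotypes, by 1.23-fold to 1.89-fold, and in all 4 comparisons their arrays did not overlap between the ages. Clock was lower in all 4 and without overlap in 3. Per2, Per3, Tef and Nr1d2 had no common direction. By limma's moderated test with Benjamini-Hochberg adjustment over all probes tested, 3 of the 10 genes passed an adjusted p of 0.05 in WT cortex, 4 in Tg2576 cortex, 6 in WT whole brain and 6 in Tg2576 whole brain. Over all probes the shares that passed were 4.56%, 10.3%, 27.8% and 12.1%, so many probes beyond the clock genes also differed between the arrays of the 2 ages. A difference without overlap and with 1 direction in all 4 comparisons was found for 5 of the 10 genes, and for 11.2% of the 32188 probes well above background on all arrays. The 4 age comparisons share no array, but the labels do not say whether cortex and whole brain arrays came from the same mice. With 3 arrays per group and no statement that they came from separate mice, the p-values measure only the spread between these samples, and in bulk tissue fewer cells of a type and less RNA per cell cannot be told apart.

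By direction, the calls among the clock genes were 2 higher and 1 lower at 17 months in WT cortex, 4 higher and 0 lower in Tg2576 cortex, and 5 higher and 1 lower in each of the whole brain comparisons. Higher calls made up 2.94%, 5.6%, 12.7% and 6.58% of all probes in the same order, and lower calls 1.62%, 4.69%, 15.2% and 5.55%. The share of higher among all calls was 64.5%, 54.4%, 45.6% and 54.2%. It depended on the scaling, and became 74.0% in Tg2576 cortex and 67.2% in WT whole brain when arrays were scaled to their median. In WT cortex it was 59.8% with quantile scaling, and 53.8% with normexp background correction followed by quantile scaling.

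**Figure D2:**
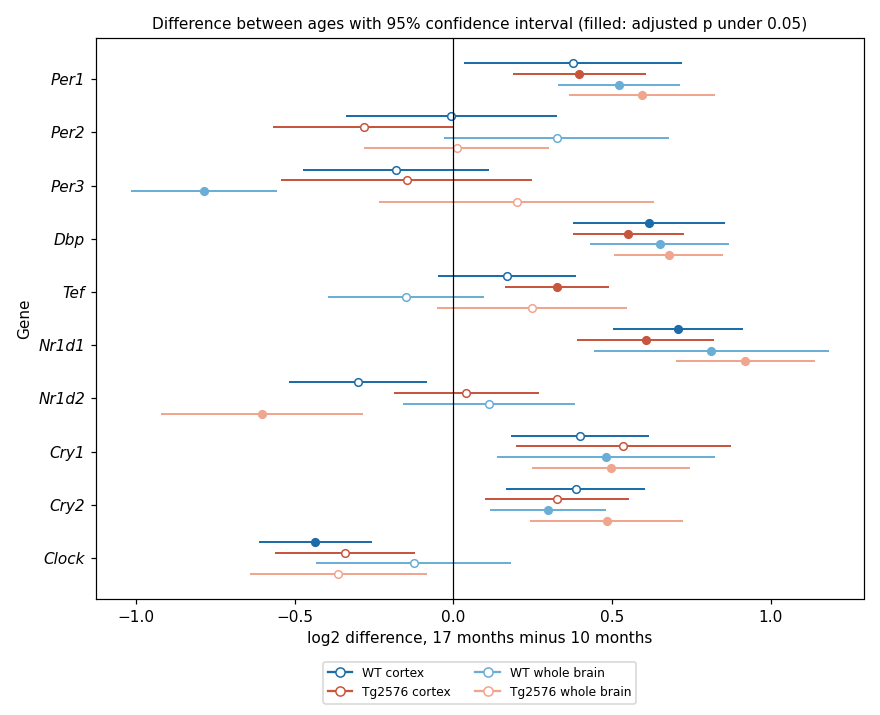
Difference of each clock gene between the ages (x axis, log2, 17 months minus 10 months) with its 95% confidence interval, for the 4 combinations of genotype and tissue with 3 arrays per age; filled points have an adjusted p under 0.05. The points of Dbp, Nr1d1, Per1, Cry1 and Cry2 all lie to the right of 0, from 0.30 for Cry2 in WT whole brain to 0.92 for Nr1d1 in Tg2576 whole brain.

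Dbp, the PAR bZIP activator and a direct output of the clock, was called in all 4 age comparisons. In WT cortex its level was 4.99, 5.16 and 5.29 on the 3 arrays of 10 months and 5.78, 5.69 and 5.82 on those of 17 months. In Tg2576 cortex it was 5.06, 5.08 and 5.12 at 10 months and 5.71, 5.64 and 5.56 at 17 months. The older arrays were all higher, by 1.53-fold in WT cortex (log2 difference 0.62 ± 0.10 SE, limma adjusted p = 0.0368) and 1.47-fold in Tg2576 cortex (0.55 ± 0.07 SE, adjusted p = 0.0210). In WT whole brain the 10-month-old arrays gave 4.997, 5.17 and 4.86 and the 17-month-old arrays 5.67, 5.62 and 5.69. In Tg2576 whole brain they gave 4.92, 4.94 and 4.94 at 10 months and 5.55, 5.63 and 5.65 at 17 months. The rises were 1.57-fold (adjusted p = 0.00689) and 1.60-fold (adjusted p = 0.0127). A second Dbp probe rose by 0.50 to 0.69 on the log2 scale in the same comparisons and passed in all 4. Ordered by group mean, Dbp ran from 4.93 in 10-month-old Tg2576 whole brain over 5.01, 5.09 and 5.15 in the other 10-month-old groups to 5.61, 5.64, 5.66 and 5.77 at 17 months, and neighbouring groups in this order overlapped within an age, except WT whole brain and WT cortex at 17 months, the last pair.

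Nr1d1, which encodes REV-ERB alpha, had the largest age difference of the 10 genes in each comparison. In cortex its level was 0.20, 0.12 and 0.18 at 10 months and 0.84, 0.78 and 1.002 at 17 months in WT mice. In Tg2576 cortex it was 0.41, 0.23 and 0.29 at 10 months and 0.93, 0.80 and 1.01 at 17 months. In whole brain it was 0.05, -0.18 and -0.54 at 10 months and 0.59, 0.65 and 0.53 at 17 months in WT mice. In Tg2576 whole brain it was -0.22, -0.29 and -0.43 at 10 months and 0.65, 0.65 and 0.52 at 17 months. No older array was as low as a younger one. The rises were 1.63-fold in WT cortex, 1.52-fold in Tg2576 cortex, 1.76-fold in WT whole brain and 1.89-fold in Tg2576 whole brain, with limma adjusted p of 0.0294, 0.0221, 0.0144 and 0.0116. By size, its difference stood above that of 92.2% to 97.8% of the probes tested in the 4 comparisons, and the difference of Dbp above 90.03% to 94.8%.

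Per1, a repressor of the loop, ranged from 2.94 to 3.41 over the 12 arrays of 10 months, with a median of 3.11, and from 3.42 to 3.86 over those of 17 months, with a median of 3.59. The ages did not overlap. The difference was 0.38 in WT cortex (limma adjusted p = 0.163), 0.40 in Tg2576 cortex (adjusted p = 0.0415), 0.52 in WT whole brain (adjusted p = 0.00829) and 0.59 in Tg2576 whole brain (adjusted p = 0.0206), all log2. The cryptochromes join the PER proteins as repressors, and their arrays did not overlap between the ages either. Cry1 lay between -4.66 and -4.09 at 10 months and between -4.06 and -3.46 at 17 months. Its level was the lowest of the 10 genes on all arrays, under the array medians of -3.38 to -3.22 in the authors' values. Cry2 lay between 4.15 and 4.52 at 10 months and between 4.54 and 4.89 at 17 months. In cortex neither passed, with adjusted p of 0.0601 and 0.0613 for Cry1 and 0.0654 and 0.0754 for Cry2 in WT and Tg2576 mice. In whole brain both passed in WT mice (Cry1 1.40-fold, adjusted p = 0.0499, and Cry2 1.23-fold, adjusted p = 0.0330) and in Tg2576 mice (1.41-fold, adjusted p = 0.0345, and 1.40-fold, adjusted p = 0.0337).

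Clock, the activator at the head of the loop, was lower at 17 months. In WT cortex it was 0.16, 0.17 and 0.13 at 10 months and -0.22, -0.38 and -0.25 at 17 months, a fall to 0.74-fold (log2 difference -0.43 ± 0.07 SE, limma adjusted p = 0.0393). The log2 differences were -0.34 in Tg2576 cortex, -0.36 in Tg2576 whole brain and -0.13 in WT whole brain, none of which passed (adjusted p = 0.0642, 0.0894 and 0.482). Only the WT whole brain arrays overlapped between the ages.

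The remaining genes differed between groups. Tef, the other PAR bZIP activator, rose in Tg2576 cortex from 5.96, 6.05 and 6.05 to 6.34, 6.31 and 6.38 (1.25-fold, limma adjusted p = 0.0382), and its other age differences ran from -0.15 to 0.25 without passing. Per3, a period gene that acts as a modulator more than as a part of the core loop, fell in WT whole brain from -1.09, -0.85 and -0.91 to -1.68, -1.86 and -1.66 (0.58-fold, adjusted p = 0.00529). In Tg2576 whole brain Per3 gave -1.30, -1.73 and -1.72 at 10 months and -1.69, -1.27 and -1.20 at 17 months. The 10-month-old arrays at -1.73 and -1.72 lay on slide 3 with the whole brain arrays of 17 months. The array at -1.30 lay on slide 2 with the WT whole brain arrays of 10 months. Nr1d2, which encodes REV-ERB beta, fell in Tg2576 whole brain from 1.24, 1.45 and 1.37 to 0.87, 0.89 and 0.50 (0.66-fold, adjusted p = 0.0377) and did not overlap there, whereas in WT whole brain the 6 arrays lay between 0.93 and 1.29 with overlap of the ages. Per2 passed in no age comparison, with log2 differences of -0.28 to 0.32.

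The age calls rested on few arrays and were not independent of the slide. In Tg2576 cortex and in WT whole brain each age lay on a slide of its own, so age and slide cannot be told apart there. In WT cortex, replicates 1 and 2 of 17 months shared slide 1 with the 3 arrays of 10 months, and within it Dbp differed by 0.59, Nr1d1 by 0.64, Cry1 by 0.46, Cry2 by 0.37, Per1 by 0.25, Clock by -0.45 and Nr1d2 by -0.37, all without overlap, while no gene passed (limma adjusted p of Nr1d1 = 0.0523). In Tg2576 whole brain, 3 arrays of 17 months shared slide 3 with 2 of 10 months. There the differences were 0.67 for Dbp, 0.96 for Nr1d1, 0.56 for Per1, 0.45 for Cry1, 0.48 for Cry2, 0.34 for Per3, -0.66 for Nr1d2 and -0.44 for Clock, again without overlap, and 2 genes passed, Dbp (adjusted p = 0.0387) and Nr1d1 (adjusted p = 0.0382). Leaving out any 1 array of WT cortex left 0 calls among the clock genes, and leaving out 1 array left 0 or 1 in Tg2576 cortex, 3 to 5 in WT whole brain and 0 to 3 in Tg2576 whole brain. The shares of all probes without overlap or passing are not given here for the fits within a slide or with 1 array left out. The differences kept their sign for Dbp, Nr1d1, Per1, Cry1, Cry2 and Clock under all alternatives run. They ran from 0.45 to 0.74 for Dbp and from 0.41 to 0.96 for Nr1d1. For Per1 the range was 0.03 to 0.67, for Cry1 0.11 to 0.72, for Cry2 0.19 to 0.56 and for Clock -0.47 to -0.02. By the methods' t-test at an unadjusted p under 0.05 and 1.5-fold, 2 genes passed in WT cortex, 1 in Tg2576 cortex, 3 in WT whole brain and 4 in Tg2576 whole brain, beside 3.19%, 5.03%, 8.91% and 5.62% of all probes. After Benjamini-Hochberg adjustment with no fold limit the t-test called 2, 3, 4 and 3 genes, beside 3.01%, 3.91%, 20.1% and 7.32% of all probes. With all 24 arrays in one model and the slide as a block, Per1 in Tg2576 cortex dropped to 0.03 and Per3 in WT whole brain to -0.36.

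Other genes of the pathway passed in smaller numbers. Of 13 further core clock genes, 1 passed in WT cortex, 2 in Tg2576 cortex, 4 in WT whole brain and 3 in Tg2576 whole brain, beside the 4.56%, 10.3%, 27.8% and 12.1% of all probes. Their median log2 differences were -0.01, 0.06, 0.10 and 0.12. Arntl, the partner of Clock, passed in none and differed by -0.26 to 0.09. Csnk1d, whose kinase marks PER proteins for decay, was higher at 17 months by 0.52 in WT cortex, 0.37 in WT whole brain and 0.50 in Tg2576 whole brain (limma adjusted p = 0.0310, 0.0183 and 0.0289). Csnk1e, a kinase of the same family, was higher by 0.33 in Tg2576 cortex and 0.36 in Tg2576 whole brain (adjusted p = 0.0388 and 0.0375). Timeless was higher by 0.31 in WT whole brain (adjusted p = 0.0454). Arntl2, a relative of Arntl, was lower with log2 differences of -0.57 in Tg2576 cortex and -0.63 in WT whole brain. Npas2, a relative of Clock, was lower in WT whole brain (-0.39).

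Of 9 clock output genes, 0, 1, 2 and 2 passed in the same order of comparisons, beside 4.56%, 10.3%, 27.8% and 12.1% of all probes. Ciart, a repressor under clock control, was higher by 0.53 in Tg2576 cortex and by 0.60 in WT whole brain (limma adjusted p = 0.0424 and 0.00780). Bhlhe40 was higher by 0.69 in WT whole brain (adjusted p = 0.00415) and Usp2 by 0.62 in Tg2576 whole brain (adjusted p = 0.0266). Nampt, of NAD synthesis, was lower in Tg2576 whole brain (log2 difference -0.49, adjusted p = 0.0217). The median log2 difference of the 9 genes was 0.19, 0.26, 0.29 and 0.23, beside medians of -0.02, -0.01, -0.03 and -0.02 over all probes tested and of 0.27, 0.33, 0.31 and 0.37 over the 10 clock genes.

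Genes that follow temperature or glucocorticoids were read beside them. Hspa1a, a heat shock chaperone, was higher at 17 months by 0.51 to 0.59 in the 4 comparisons and passed in all but WT cortex. Cirbp, which is induced by cold, was higher by 0.29 to 0.64 and passed in WT cortex (limma adjusted p = 0.0287). Hsp90aa1, another chaperone, was lower in WT whole brain (log2 difference -0.35) and in Tg2576 whole brain (-0.37), and passed in both. In WT whole brain, where 27.8% of all probes passed, so did some genes of other lists. Of 7 glucocorticoid-responsive genes, 3 passed there and 0 in the other age comparisons, Fkbp5 (-0.28) and Tsc22d3 (-0.49) lower and Zbtb16 (0.34) higher. Gfap, of astrocytes, passed in both whole brain comparisons and was higher at 17 months by 0.66 in WT and 0.71 in Tg2576 mice. App passed there too (0.58 and 0.31). Of 10 immediate early genes, 3 passed in WT whole brain, a share near that of all probes, and 0 in the others. They were higher at 17 months, Egr1 (0.82), Fosb (0.39) and Junb (0.38). Of 5 tested markers of the suprachiasmatic nucleus and hypothalamus, where the master clock lies, 3 passed in WT whole brain and 0 in the others, Lhx1 (0.64) and Rgs16 (0.62) higher and the neuropeptide Vip lower (-0.56). The part of these in the clock gene differences was not tested.

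Between the genotypes no clock gene passed. The share of all probes that passed was 0% in each of the 4 comparisons of Tg2576 with WT mice, in cortex and whole brain at 10 and 17 months. At an unadjusted p under 0.05 in limma, 1 of the 10 genes differed in cortex at 10 months, 1 in cortex at 17 months, 2 in whole brain at 10 months and 2 in whole brain at 17 months, beside 9.95%, 9.32%, 11.4% and 12.99% of all probes tested. The methods' t-test called 0 of the 10 genes in each of these comparisons after Benjamini-Hochberg adjustment, as it did 0% of all probes. At its threshold of an unadjusted p under 0.05 and 1.5-fold, it called Per3 in whole brain at 10 months and none of the 10 in the other comparisons, beside 0.818%, 1%, 0.777% and 0.955% of all probes. Of the genes that were higher at 17 months without overlap, Dbp, Nr1d1, Per1, Cry1 and Cry2, the 95% intervals of the genotype difference lay between -0.57 and 0.39 over the 4 comparisons. For Dbp the 95% interval ran from -0.33 to 0.07 in cortex at 17 months and from -0.20 to 0.11 in whole brain at 17 months, and for Nr1d1 from -0.20 to 0.28 and from -0.16 to 0.20. At 10 months in whole brain it ran from -0.30 to 0.15 for Dbp and from -0.47 to 0.29 for Nr1d1.

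**Figure D3:**
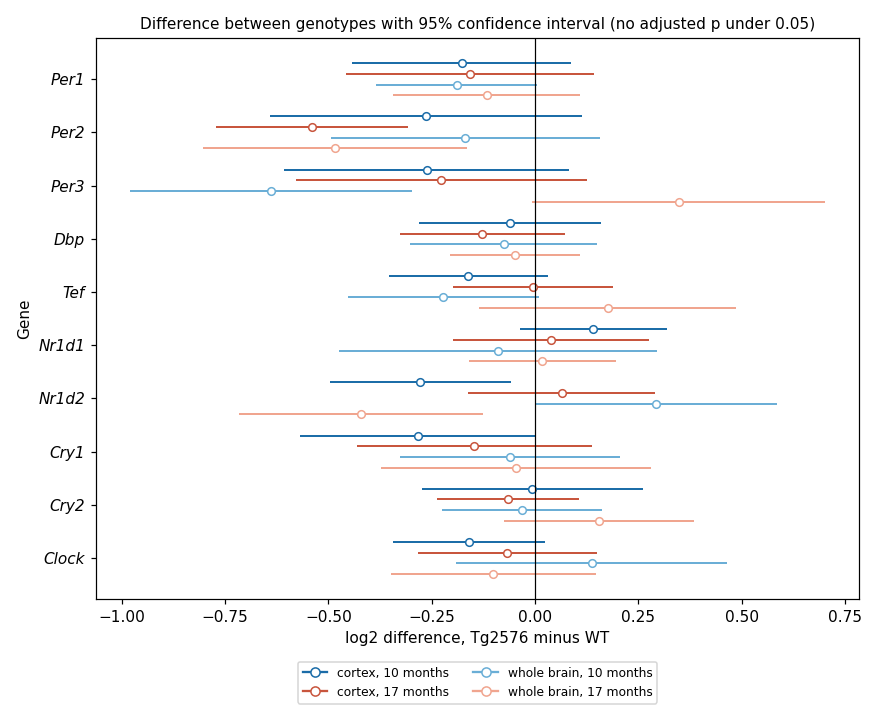
Difference of each clock gene between genotypes (x axis, log2, Tg2576 minus WT) with its 95% confidence interval, for the 4 combinations of tissue and age with 3 arrays per genotype. No gene has an adjusted p under 0.05, and the intervals of Per2 at 17 months, -0.77 to -0.31 in cortex and -0.80 to -0.16 in whole brain, lie to the left of 0.

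At 17 months Per2 was the 1 gene of the 10 whose arrays did not overlap between the genotypes in either tissue. In cortex its level was -0.61, -0.79 and -0.77 on the WT arrays and -1.14, -1.34 and -1.31 on the Tg2576 arrays. In whole brain it was -0.84, -0.58 and -0.95 on the WT arrays and -1.11, -1.27 and -1.44 on the Tg2576 arrays. All 6 Tg2576 arrays of that age were below the 6 WT arrays. How many of all probes separated the genotypes in this way was not counted. The log2 differences were -0.54 ± 0.10 SE in cortex and -0.48 ± 0.13 SE in whole brain, which missed the threshold after adjustment (limma adjusted p = 0.502 and 0.342, unadjusted p = 0.00112 and 0.00982). With the slide as a block the cortex difference was -0.49 (adjusted p = 0.692), and the whole brain arrays of 17 months were all on slide 3. At 10 months the arrays overlapped in both tissues, with differences of -0.26 and -0.17. The interaction of genotype and age was -0.28 ± 0.19 SE in cortex (adjusted p = 0.651) and -0.31 ± 0.20 SE in whole brain (adjusted p = 0.440).

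Per3 and Nr1d2 showed other patterns in whole brain. Per3 was lower in Tg2576 than in WT mice at 10 months without overlap (log2 difference -0.64 ± 0.14 SE, limma adjusted p = 0.431) and at 17 months was 0.35 higher with overlap (adjusted p = 0.389). Its interaction with age was 0.99 ± 0.22 SE, and larger in size than that of 97.3% of the probes tested, but did not pass (adjusted p = 0.189). With the slide as a block the difference at 10 months was -0.36 (adjusted p = 0.893) and the interaction 0.70 (adjusted p = 0.577). Without replicate 1 of the 10-month-old Tg2576 whole brain it was 1.13 and passed (adjusted p = 0.0371). Nr1d2 was 0.29 higher in Tg2576 mice at 10 months and 0.42 lower on the log2 scale at 17 months (difference -0.42 ± 0.12 SE), where the arrays did not overlap. Its interaction was -0.71 ± 0.18 SE (adjusted p = 0.189). In neither tissue did an interaction of any of the 10 genes pass, and the share over all probes was 0% in both.

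The genes with levels most like that of Per2 included 3 immediate early genes. Among 14586 genes well above background on all 24 arrays, with the mean of each tissue removed, the 5 with the highest Pearson correlation with Per2 were Arc (0.75), Egr2 (0.73), Rpe65 (0.73), Fos (0.72) and Klf10 (0.70). Arc, Egr2 and Fos are immediate early genes of active neurons. Over the whole list of 10 immediate early genes the correlation with Per2 ran from 0.07 for Npas4 to 0.75 for Arc, with a median of 0.54. The 5 lowest were Rnu2-10 (-0.79), Rprl2 (-0.76), Cops9 (-0.76), Mrpl54 (-0.76) and Rhox3c (-0.75). Fos was -0.14, -0.06 and 0.45 in WT and -0.61, -1.35 and -0.73 in Tg2576 cortex at 17 months. In whole brain at that age Fos was 0.08, 0.12 and 0.22 in WT and -0.63, -0.76 and -0.98 in Tg2576 mice. Arc was 3.73, 3.95 and 3.83 in WT and 3.28, 3.35 and 2.82 in Tg2576 whole brain at 17 months. The Tg2576 arrays were the lower ones in each case. Of the 10 immediate early genes listed, 10 were lower in Tg2576 cortex and 9 in Tg2576 whole brain at 17 months. Their median log2 differences were -0.45 and -0.59, beside 0.008 and 0.011 over all probes tested, and none passed in limma. At an unadjusted p under 0.05, 4 and 7 of these genes differed, beside 9.32% and 12.99% of all probes tested. The arrays share tissue, slide and age groups, so these correlations over 24 arrays are given as a description.

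**Figure D4:**
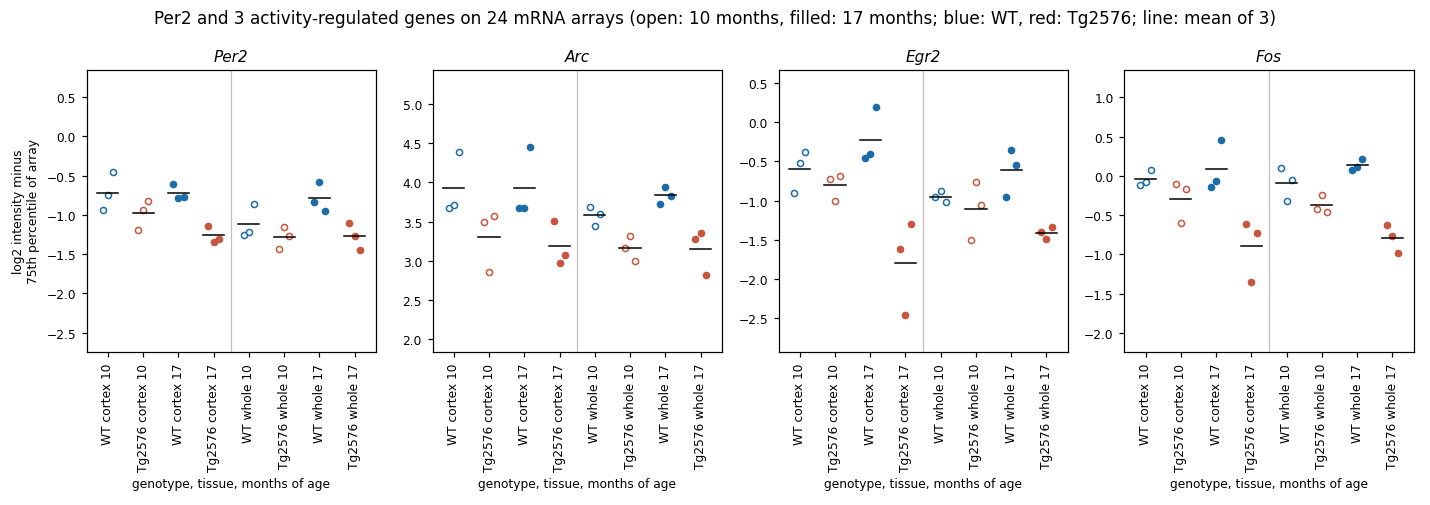
Level of Per2 and of 3 immediate early genes with a high correlation with it (y axis, log2 intensity minus the 75th percentile of the array) on 24 arrays in 8 groups (x axis), with 1 point per array and a line at the mean of 3; WT is blue, Tg2576 red, 10 months open and 17 months filled. In Tg2576 mice of 17 months Per2 lies at or below -1.11 and Fos at or below -0.61, under all WT points of that age.

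Between cortex and whole brain 1 clock gene passed in 1 comparison. Of the 10 genes, 0 passed in WT mice at 10 months, 1 in WT mice at 17 months, 0 in Tg2576 mice at 10 months and 0 in Tg2576 mice at 17 months, beside 0.0101%, 10.3%, 0% and 1.97% of all probes. At an unadjusted p under 0.05 in limma the counts were 3, 4, 3 and 1 of the 10 genes, beside 23.7%, 30.9%, 22.9% and 20.9% of all probes tested. No slide held both tissues in any of the 4 comparisons, so tissue and slide cannot be told apart. The 1 gene was Per3, higher in cortex (-1.07, -0.996 and -1.09) than in whole brain (-1.68, -1.86 and -1.66) of 17-month-old WT mice by 1.60-fold (limma adjusted p = 0.0206). The call was lost without replicate 1 of the WT cortex or any 1 of the 3 whole brain arrays, and with all 24 arrays in one model and the slide as a block the difference was 0.22 (adjusted p = 0.877). Nr1d1 was higher in cortex in all 4 comparisons without overlap, by 0.29 to 0.62 on the log2 scale, and passed in none (limma adjusted p = 0.0783 to 0.194). The share of all probes with such a pattern between the tissues was not counted. For Arntl2, Npas2, Rorb and Bhlhe41, 4 of the further clock and output genes, the WT cortex at 17 months was also higher, by 0.69, 0.67, 0.55 and 0.83, and each passed (adjusted p = 0.0266, 0.0280, 0.0223 and 0.0225). Of the markers, Snap25 (-0.41) and Gfap (-0.70) were lower and the pineal gene Aanat (0.32) higher in cortex of these mice.

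The 10 genes did not vary as one over the arrays. With tissue means removed, Dbp correlated with Nr1d1 (r = 0.93), Cry2 (0.93), Per1 (0.92) and Cry1 (0.83) over 24 arrays and inversely with Clock (-0.74), and 15 of the 45 pairs exceeded 0.5. Clock and Nr1d2 went together (0.74). Removing the group means, which leaves only the differences between arrays of a group, lowered most of the first values. Dbp with Nr1d1 dropped to 0.21 and Dbp with Cry1 to -0.10, whereas Clock with Nr1d2 (0.85), Tef with Cry2 (0.81) and Dbp with Cry2 (0.69) remained over 0.5. The median over the 45 pairs was 0.14 in each case. The arrays share groups, slides and tissue, so these values are a description.

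**Figure D5:**
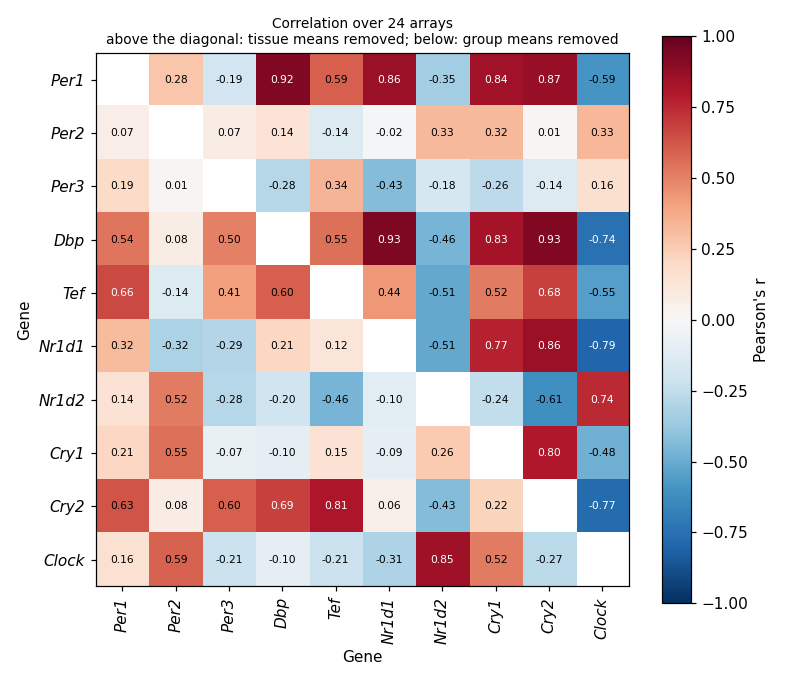
Pearson's r between each pair of the 10 clock genes over 24 arrays, with tissue means removed above the diagonal and group means removed below it, coloured from -1 to 1. Dbp with Nr1d1 is 0.93 above the diagonal and 0.21 below it, and Clock with Nr1d2 is 0.74 and 0.85.

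The genes whose levels were most like that of Dbp were not clock genes. With tissue means removed, the highest correlations over 24 arrays were with Cog1 (0.98), Zfpm1 (0.97), Spen (0.97), Ciz1 (0.97) and Prag1 (0.97), and the lowest with Hnrnpc (-0.93), Zfp944 (-0.92), Prps1l3 (-0.92), Trmt13 (-0.92) and Cops2 (-0.92). All 5 of the first were higher at 17 months, Spen by 0.99 and Zfpm1 by 0.99 on the log2 scale over the 12 arrays of each age, and all 5 of the second were lower. Among the same 14586 genes Nr1d1 stood at rank 222, Cry2 at rank 255, Per1 at rank 311 and Cry1 at rank 1475 of likeness to Dbp, and Clock at rank 13742. These correlations share the 24 arrays and the age groups and carry no test.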

How the data were processed

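RNA from cortex or whole brain was hybridised to 1-colour Agilent arrays, and the deposited files hold the spot intensity as Agilent Feature Extraction 10.7.3.1 gave it, per the submitters' processing notes. The authors' value table holds log2 values centred per array. Of its values, 99.8% to 99.9% per array lay within 0.01 of log2 intensity minus a constant at the 75th percentile, and the column medians were -3.38 to -3.22.

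Here, spots of a probe were averaged, saturated spots kept and outlier spots left out, and log2 intensity minus the 75th percentile of each array was used. Probes were named through RefSeq transcripts. Probes entered a test if 2 or more arrays of either group read them well above background. Groups of 3 arrays were compared with limma 3.58.1 in R 4.3.3, with Benjamini-Hochberg adjustment over all probes tested and a threshold of 0.05, and genotype by age was fitted on the 12 arrays of a tissue. The test code was tested on simulated data. Beyond the 10 clock genes, the genes named were those of fixed lists that passed the test, and for Dbp and Per2 the 5 with the highest and the 5 with the lowest correlation. Genes chosen to illustrate a list, such as Arntl, Fos and Arc, were named after their values were seen. The clock genes and lists were chosen with earlier results of these data known. Of the list genes that passed, 2 are not reported here. The miRNA arrays were not used, Hspa1b and Asmt had no probe here, and Six6 and Crx were not tested. The number of arrays limits the precision.

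Alternatives were quantile and median scaling, normexp background correction followed by quantile scaling (named normexp here), the authors' values and no detection filter. Others were all 24 arrays in one model, the mean over the probes of a gene, the methods' test, blocks for replicate number and slide, and leaving out each array. Fits over all arrays with the slide as a block and fits within a slide were added after seeing the data.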

Additional observations from a re-analysis of the deposited data

Results flagged for a closer look

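Nr1d2, which encodes REV-ERB beta, drew attention because the sign of its difference between cortex and whole brain was opposite in pairs of groups, with all arrays of a group on the same side. In 17-month-old WT mice cortex was lower than whole brain (log2 difference -0.24), whereas in 17-month-old Tg2576 mice it was higher (0.25), a gap of -0.49. In 10-month-old Tg2576 mice cortex was lower (-0.40), so the gap to the 17-month-old Tg2576 mice was -0.64. These gaps between groups were not tested, and in none of these groups did a slide hold both tissues.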

How the results depend on the processing

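The age differences of Dbp, Nr1d1, Per1, Cry1, Cry2 and Clock kept their sign in all 4 comparisons and under all alternatives run. Some came near 0, such as 0.03 for Per1 in Tg2576 cortex, 0.11 for Cry1 in Tg2576 whole brain and -0.02 for Clock in WT whole brain. The number of the 10 genes that passed was less stable. For age in WT cortex (3 genes) it was 1 with median scaling, 5 with normexp, 0 without the detection filter, 6 with all 24 arrays in one model, 0 with the slide as a block, 5 with all 24 arrays and that block, 0 within the shared slide, and 0 in each of the 6 fits that left out 1 array. For age in Tg2576 cortex (4 genes) it was 2 with quantile scaling, 0 without the filter, 7 with all 24 arrays, 0 with all 24 arrays and the slide block, and 0 to 1 when 1 array was left out. For age in WT whole brain (6 genes) it was 2 with all 24 arrays and the slide block and 3 to 5 when 1 array was left out. For age in Tg2576 whole brain (6 genes) it was 3 by the methods' test, 2 with the slide block, 2 within the shared slide and 0 to 3 when 1 array was left out. It was 0 there without replicate 2 or 3 of 10 months or replicate 2 of 17 months. For tissue, it was 1 with all 24 arrays in WT mice of 10 months (0 genes). In WT mice of 17 months (1 gene) it was 2 with normexp, 0 without the filter, 2 by the methods' test, 0 with all 24 arrays and the slide block and 0 to 1 when 1 array was left out. In Tg2576 mice of 10 months (0 genes) it was 1 with normexp, 2 with all 24 arrays and 0 to 1 when 1 array was left out, the 1 being Nr1d1 without replicate 1 of whole brain. The whole brain interaction gave 0 to 1. After adjustment no alternative gave a genotype call among the 10 genes, and the methods' test with an unadjusted p and a fold limit called Per3 in whole brain at 10 months. The number of all probes that passed moved too. For age in WT cortex it was 1800 in the main fit, 609 with median scaling and 3698 with normexp. For age in Tg2576 cortex it was 4025, and 3869 with quantile scaling. For tissue it was 3921, and 4602 with normexp, in WT mice of 17 months. In Tg2576 mice of 10 months it was 0, and 962 with normexp. For the other alternatives it is not given here. The cause of these shifts was not tested. In the tissue comparison of 17-month-old WT mice the share of higher among all calls was 62.6%, and 45.6% with median scaling.

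Same-numbered arrays showed no common deviation across the comparisons, with correlations of -0.13 to 0.32, and no comparison had 3 of 3 pairs over 0.1. The labels do not say whether cortex and whole brain arrays came from the same mice. With 3 arrays per group these values cannot decide it. With the replicate block the age calls were 0 in WT cortex, 0 in Tg2576 cortex, 4 in WT whole brain and 0 in Tg2576 whole brain, the tissue calls in WT mice of 17 months were 0, and the block changed no other count among the 10 genes. In the tissue comparison of 17-month-old Tg2576 mice each array correlated best with its own number, a hint from the data and not from the design.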
